A study of Homo sapiens with 6 samples.

Results

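The stress keratins are 5 genes of the keratin 6, 16 and 17 group, KRT6A, KRT6B, KRT6C, KRT16 and KRT17, taken by gene symbol from the 21961 symbols of a count table. All 5 passed the filter on low counts and were among the 14617 genes tested. The libraries are 3 titled mod and 3 titled Nvs, all from HaCaT, an immortalised line of human keratinocytes. The design text of the series describes HaCaT cells irradiated with UVB and such cells that also received BVNV, nanovesicles from beet according to the title. The library labels give mod as UV-induced and Nvs as control, with no mention of vesicles on either, so the group names mod and Nvs are kept. No UVB dose, vesicle dose or time is given. No library is stated to be unirradiated, but the label control does not tell whether the Nvs cells were irradiated. All libraries share a single cell line, and no label ties the replicates to separate cultures. P-values thus cover nothing beyond library-to-library variation, possibly of technical origin.

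Keratins build the intermediate filaments of epithelial cells, and each filament needs a type I and a type II chain. KRT5 and KRT14 encode the type II and type I chains of basal keratinocytes. KRT6A, KRT6B and KRT6C encode the type II keratin 6 chains, which assemble with the type I keratins 16 and 17. In skin between the hair follicles these chains are scarce, and they are induced at wound edges, after ultraviolet exposure and in psoriasis. Hair follicles, nail beds, palms and soles carry them without injury, and keratinocytes in culture express them as well. Inherited mutations in KRT6A, KRT6B, KRT16 and KRT17 cause pachyonychia congenita, a disease of thick nails and painful soles.

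The genes lie in both keratin clusters. KRT6B, KRT6C and KRT6A stand next to each other in the type II cluster on chromosome 12, on the minus strand, at 52446651 to 52452126, 52468516 to 52473785 and 52487174 to 52493257 (GENCODE release 29, GRCh38). KRT16 (41609778 to 41615899) and KRT17 (41619441 to 41624842) are direct neighbours in the type I cluster on chromosome 17, also on the minus strand. No other annotated gene overlaps any of them on either strand. The nearest gene before KRT6B is KRT75 and the one after KRT6A is KRT5. KRT17 is followed by the pseudogene KRT42P, and LOC124904003 comes before KRT16 (RefSeq, GRCh38.p14). The annotation deposited with the counts gave all 5 genes the terms intermediate filament organization and keratinization. KRT6A alone among them carried wound healing, and KRT17 alone carried positive regulation of translation.

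Copies of these genes are close enough to share reads. The coding sequences of KRT6A, KRT6B and KRT6C are all 1692 bases long, and KRT6A differed from KRT6B at 42 bases and from KRT6C at 35, with identities of 97.5% and 97.9%. KRT6B and KRT6C were the closest, at 98.5%. Of the stretches of 150 bases, the length of a read, in the KRT6A transcript, 9.25% also occur unchanged in KRT6B or KRT6C, against 12.8% for KRT6B and 16.5% for KRT6C. How the authors treated such reads is not given in the sources used here, so the split between these genes is uncertain, above all for the scarce KRT6B and KRT6C. The 90 bases of coding exon 2 with the most differences are shown because reads from them can be told apart. In each of the 3 lines, which run 5′ to 3′ on the coding strand, capitals mark the 10 positions at which the genes are not all alike.
KRT6A, chr12:52491532-52491621: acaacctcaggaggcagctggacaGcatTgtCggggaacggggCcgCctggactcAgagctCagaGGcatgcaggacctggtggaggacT
KRT6B, chr12:52450416-52450505: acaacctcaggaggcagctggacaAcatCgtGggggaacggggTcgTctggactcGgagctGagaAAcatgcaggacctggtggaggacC
KRT6C, chr12:52472076-52472165: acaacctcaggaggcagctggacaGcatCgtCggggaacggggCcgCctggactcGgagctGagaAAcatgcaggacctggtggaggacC

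KRT16 has pseudogenes elsewhere on chromosome 17, and the most abundant of them here was KRT16P2, on the minus strand at 16829999 to 16832830. Its transcript matched the KRT16 coding sequence at 94.8% of 1417 aligned bases. None of its 150-base stretches occurs unchanged in KRT16, whose own transcript shares 0.736% of such stretches with KRT14 or KRT16P3. The 90-base window with the most differences, in exon 4 of both, is shown because the counts of the gene and the pseudogene moved apart. Capitals mark the 9 differing positions.
KRT16, chr17:41611093-41611182: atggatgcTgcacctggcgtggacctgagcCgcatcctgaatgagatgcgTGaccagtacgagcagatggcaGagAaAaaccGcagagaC
KRT16P2, chr17:16831156-16831245: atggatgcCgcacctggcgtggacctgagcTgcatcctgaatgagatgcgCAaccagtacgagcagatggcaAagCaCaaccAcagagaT

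KRT16 and KRT17 themselves are less alike, with 82.6% identity over 1247 aligned bases, and no 150-base stretch of the KRT17 transcript occurs in the transcript of another gene. The window with the most differences, in exon 5 of both, holds 26 of them and is shown because the fold changes of these neighbours were compared below.
KRT16, chr17:41610888-41610977: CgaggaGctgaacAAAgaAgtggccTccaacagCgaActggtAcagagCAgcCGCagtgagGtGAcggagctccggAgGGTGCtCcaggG
KRT17, chr17:41621000-41621089: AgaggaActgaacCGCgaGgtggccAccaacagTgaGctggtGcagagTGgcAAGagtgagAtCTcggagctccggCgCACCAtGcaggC

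The libraries held 45637046 to 51369628 counted reads in mod, against 41120058 to 44080808 for Nvs. Mitochondrially encoded transcripts made up 29.8% to 31.4% of the mod counts and 51.8% to 53.3% of the Nvs counts, which leaves fewer reads for nuclear genes in Nvs. Levels are given as CPM, counts brought to a common library size by TMM scaling, under which the typical gene hardly moves, so a rise or fall is relative to that gene. Scaled by library total instead, the median gene stood at -0.77 on the log2 scale. Fold changes and calls by library total are given beside the main ones wherever the direction turns or a call ends. Summed CPM of marker lists are given with TMM scaling only. All 10 keratinocyte markers were tested, and their summed level was 21580 to 23412 CPM in mod and 28130 to 30520 in Nvs. Of these markers KRT14, SFN and LAMB3 were called higher and DSG3, DSC3, PKP1 and COL17A1 lower, with a median log2 fold change of -0.04. Over all tested genes 22.8% were called higher and 20.5% lower. By library total SFN alone of the markers was called higher and 9 were called lower, among them LAMB3 at -0.25. On that scale 4.03% of all tested genes were called higher and 68% lower. In bulk RNA, fewer cells of a type and less RNA per cell cannot be told apart. The summed markers of fibroblasts stayed at 8.57 to 12.2 CPM over the 6 libraries, those of melanocytes at 3.85 to 6.08 and those of leukocytes and endothelium at 2.21 to 4.01. The 8 of 22 hair follicle and nail keratins that had any read summed to 1.14 to 2.64 CPM, and 0 of the 5 tested were called, against 1 called lower by library total. Reads were listed for 6 of 10 fibroblast markers, with COL1A1 highest at a group mean of up to 10.8 CPM, for 5 of 8 melanocyte markers and for 8 of 10 of leukocytes and endothelium. COL1A2, THY1, TYR, DCT and PTPRC were among those with no row used here.

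Per transcript length, the 5 genes covered 3 orders of magnitude and kept 1 order in both groups. In FPKM, the authors' values scaled by transcript length and depth, KRT6A was at 1004 ± 67.6 in mod (SD, n = 3) and 712 ± 8.84 in Nvs. KRT16 followed at 100.1 ± 6.49 and 190 ± 11.6, and KRT17 at 30.0 ± 0.913 and 133 ± 8.31. KRT6B had 2.68 ± 0.659 and 3.50 ± 0.422 FPKM, and KRT6C 0.879 ± 0.107 and 1.31 ± 0.458. Neighbours in this order did not overlap in either group. Ranked by mean FPKM among all symbols, KRT6A was number 25 in mod and 34 in Nvs, KRT16 moved from 233 to 98 and KRT17 from 1027 to 147. FPKM follow the library total, and their direction for KRT6A is therefore that of the library-total scale.

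All 5 stress keratins were called higher in Nvs by the edgeR quasi-likelihood test at an adjusted p under 0.05. Of all tested genes 22.8% were called higher, 20.5% lower and 43.3% in either direction. Likewise all 5 genes had groups that did not overlap in TMM-scaled CPM, with Nvs above mod, as did 27% of the tested genes, while 26.7% did so with Nvs below. The median log2 fold change of the 5 was 1.33, against -0.01 for all tested genes. By library total the median of the 5 was 0.57. On both scales this median was the value of KRT6C, the scarcest of the 5 genes. On that scale KRT16 and KRT17 were called higher, KRT6A was called lower, and KRT6B and KRT6C were not called. There, 4.03% of the tested genes were called higher and 68% lower.

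**Figure D1:**
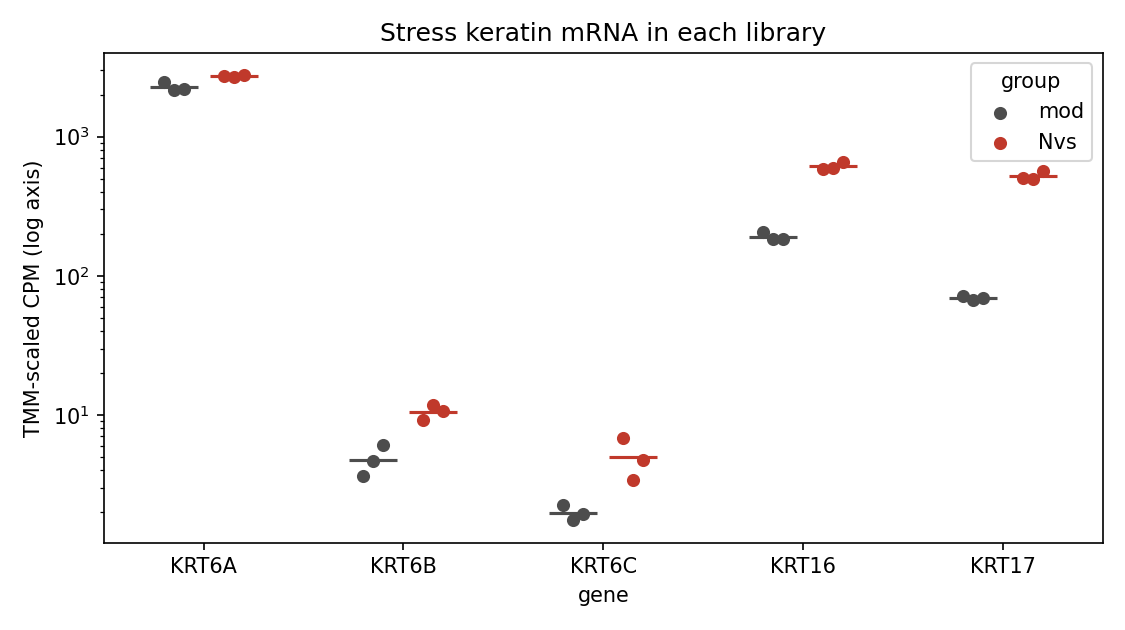
TMM-scaled CPM (log axis) of the 5 stress keratin genes in each of the 3 mod and 3 Nvs libraries, with a line at each group's mean. KRT17 stands at 67.2 to 72.1 CPM in mod and 500.2 to 563.8 in Nvs, and the Nvs points of every gene lie above its mod points on this scale.

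KRT17, a type I keratin that in mouse keratinocytes also promotes protein synthesis and cell growth, rose the most. Its level was 72.1, 67.2 and 69.1 CPM in the mod libraries and 501.0, 500.2 and 563.8 CPM in the Nvs libraries. The lowest Nvs library was thus far above the highest mod library. The rise was 7.51-fold, with a log2 fold change of 2.91 ± 0.06 (SE, adjusted p = 4.96e-12, edgeR), number 45 from the top among the tested genes. By library total it was still 4.44-fold, and even the raw counts rose in every Nvs library, from between 4050 and 4801 to between 15833 and 18820.

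KRT16, the type I partner of keratin 6 in activated epidermis, rose by less. The mod libraries had 206.1, 184.2 and 184.1 CPM and the Nvs libraries 581.5, 598.8 and 662.1 CPM. The groups were wide apart, with the third Nvs library the highest, as it was for KRT17. The rise was 3.21-fold (log2 fold change 1.68 ± 0.06 SE, adjusted p = 5.33e-10, edgeR), number 278 from the top, and 1.89-fold by library total. Its raw counts went from between 10797 and 13729 to between 18956 and 22102.

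KRT6A, the main keratin 6 gene and by far the most abundant stress keratin, changed little, and its direction rested on the scaling. Relative to the typical gene its level was 2452, 2148 and 2207 CPM in mod and 2727, 2678 and 2764 CPM in Nvs. The 3 Nvs libraries lay above all mod libraries, by a small margin over mod replicate 1. This was a 1.20-fold rise (log2 fold change 0.26 ± 0.06 SE, adjusted p = 0.00219, edgeR). By library total KRT6A stood at -0.50 (adjusted p = 1.43e-06, edgeR), above the median gene at -0.77. Its FPKM were 965 to 1082 in the mod libraries, against 702 to 718 for Nvs. Short transcripts had higher fold changes here. The trend of fold change on transcript length was 0.15 at the 2938 bases that counts and FPKM imply for KRT6A. Less this trend its log2 fold change was 0.11. The GENCODE transcript of KRT6A has 2310 bases, and the trend was 0.25 at the 2311 bases implied for KRT6B.

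KRT6B and KRT6C, the minor keratin 6 genes, were scarce in these cells. The level of KRT6B was 3.63, 4.63 and 6.04 CPM in mod and 9.21, 11.8 and 10.6 CPM in Nvs (log2 fold change 1.14 ± 0.19 SE, adjusted p = 0.000287, edgeR). KRT6C had 2.25, 1.75 and 1.94 CPM in mod and 6.81, 3.38 and 4.76 CPM in Nvs, the widest spread of the 5 genes (1.33 ± 0.27 SE, adjusted p = 0.00120, edgeR). These rises rest on 242 to 373 reads of KRT6B and 107 to 232 reads of KRT6C per library, and the raw counts of both genes overlapped between the groups. By library total they were at 0.39 (adjusted p = 0.0884) and 0.57 (adjusted p = 0.0725, both edgeR), not called. With the reads of all 3 keratin 6 genes pooled, a value that does not depend on how they were split, the log2 fold change was 0.27 (adjusted p = 0.00194, edgeR). That value is set by KRT6A, which held 99.6% of the keratin 6 FPKM in mod and 99.3% in Nvs. The summed keratin 6 FPKM, which follow the library total, went the other way, from 1007 ± 67.1 in mod to 717 ± 8.84 in Nvs (SD, n = 3).

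**Figure D2:**
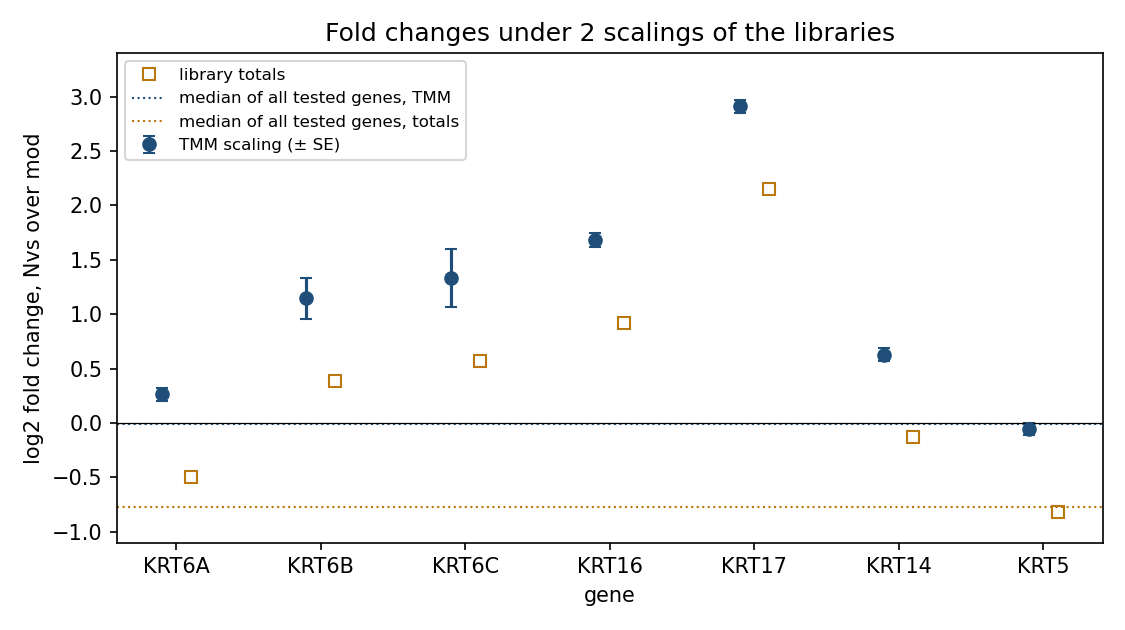
Log2 fold change, Nvs over mod, of the 5 stress keratins and the basal keratins KRT14 and KRT5 with TMM scaling (filled circles, ± SE) and by library total (open squares), with dotted lines at the median of all tested genes on each scale. KRT17 (2.91 and 2.15) and KRT16 (1.68 and 0.92) are above 0 on both scales, while KRT6A is at 0.26 and -0.50.

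Ratios between keratins of the same library do not depend on how the libraries are scaled. Each of the 6 ratios computed separated the groups without overlap, with an exact permutation p of 0.1 (two-sided, 3 against 3), which is the smallest that this design allows, and 0.1 after adjustment over the 6. KRT17 stood at 0.289, 0.301 and 0.310 FPKM per FPKM of KRT16 in mod and at 0.712, 0.691 and 0.704 in Nvs, a difference of 1.23 on the log2 scale. The neighbours KRT16 and KRT17 thus did not move by the same factor. Relative to KRT14, the basal type I keratin, KRT16 was 2.07-fold and KRT17 4.86-fold higher in Nvs. Of the summed FPKM of the type I genes KRT14, KRT16 and KRT17, the share of KRT16 went from 2.09% ± 0.0219 to 4.14% ± 0.0700 (SD, n = 3) and that of KRT17 from 0.627% ± 0.0182 to 2.91% ± 0.0355. KRT14 gave the bulk of this mRNA in both groups.

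On the type II side the shift was smaller. The keratin 6 sum per KRT5, the basal type II chain, was 0.454, 0.437 and 0.438 in mod and 0.572, 0.553 and 0.543 in Nvs, 1.26-fold higher. Keratin 6 mRNA exceeded that of the type I partners in both groups, by less in Nvs. The keratin 6 sum per KRT16 plus KRT17 was 7.83, 7.61 and 7.78 in mod and 2.33, 2.26 and 2.09 in Nvs, a log2 difference of -1.80. The third Nvs library, with the most KRT16 and KRT17, had the lowest of these ratios.

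**Figure D3:**
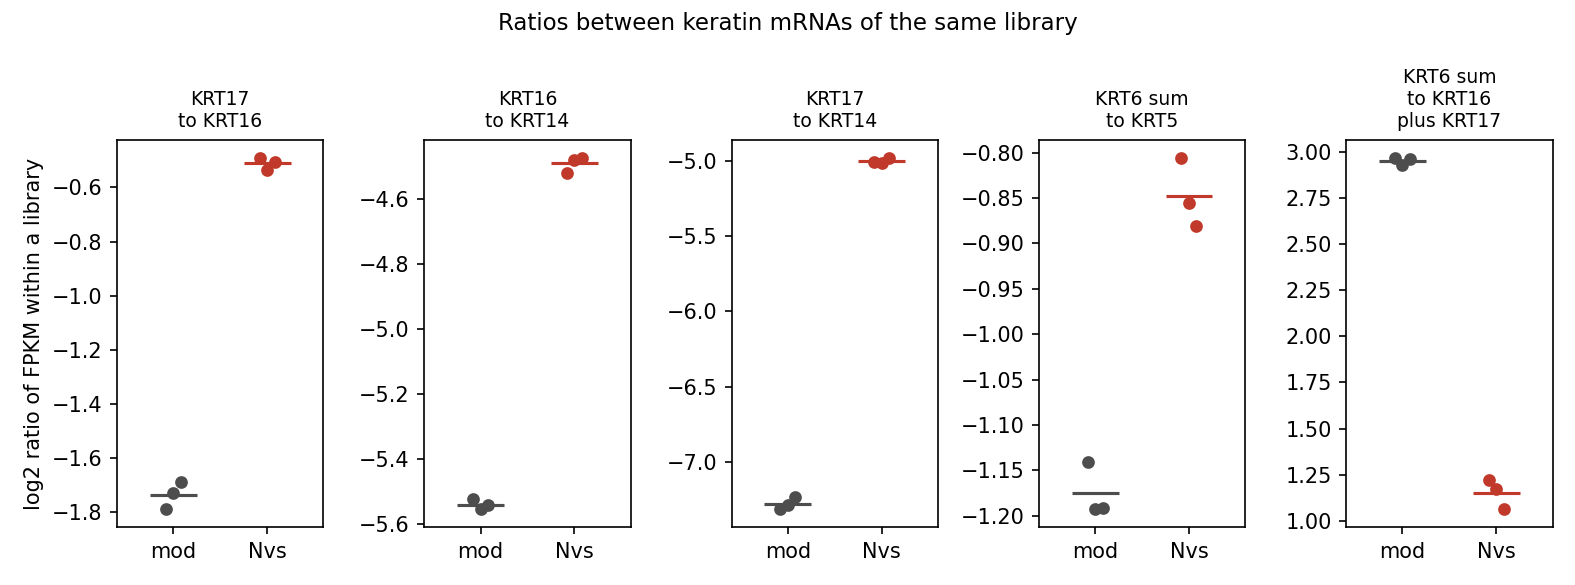
Log2 ratio of FPKM between keratin genes of the same library (y axes differ in range) for 3 mod and 3 Nvs libraries, with lines at the group means. The KRT17 to KRT16 ratio is at -1.74 in mod and -0.51 in Nvs on average, and the keratin 6 sum to KRT16 plus KRT17 at 2.95 and 1.15.

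The make-up of the stress keratin mRNA differed. KRT6A gave 88.2% ± 0.180 of the FPKM of the 5 genes in mod and 68.5% ± 1.21 in Nvs. KRT16 gave 8.80% ± 0.115 and 18.2% ± 0.748, and KRT17 2.64% ± 0.0892 and 12.8% ± 0.503. KRT6B and KRT6C together stayed below 1% in every library. The 5 genes took 0.474% ± 0.0300 of the counts outside the mitochondrial genome in mod and 0.628% ± 0.00468 in Nvs. Of all counts, mitochondrial ones included, they took less in Nvs, 0.298% ± 0.00678 against 0.330% ± 0.0216 in mod. Of all keratin FPKM they made up 11.2% ± 0.211 and 13.2% ± 0.234, so most keratin mRNA came from other keratin genes.

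**Figure D4:**
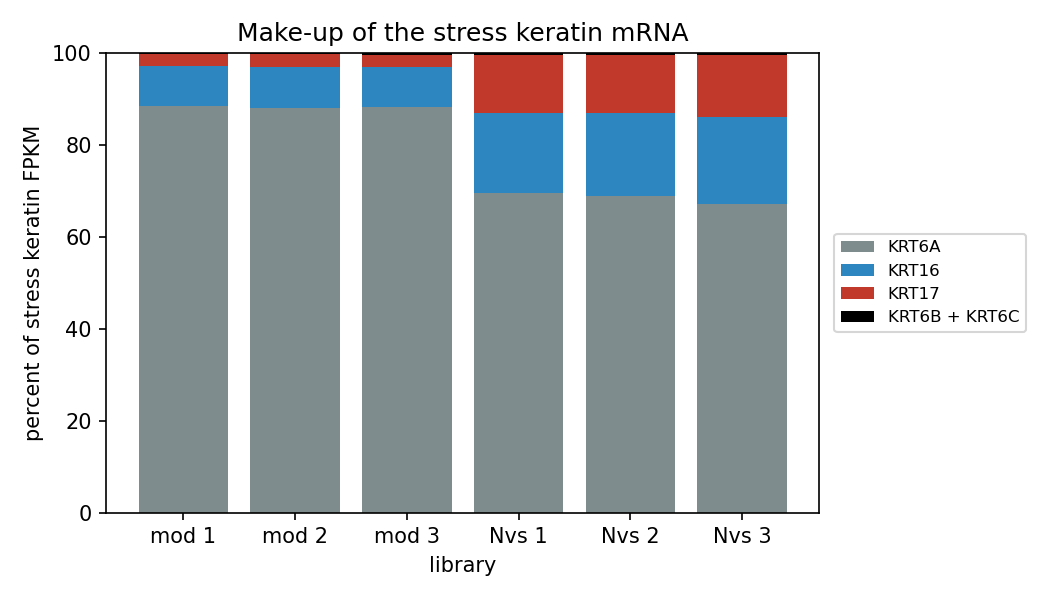
Percent of the summed FPKM of the 5 stress keratins given by each gene, per library (KRT6B and KRT6C, under 1%, are the thin line at the top). KRT6A is at 88.2% in mod and 68.5% in Nvs on average, while KRT17 goes from 2.64% to 12.8%.

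The pseudogene of KRT16 moved the other way. KRT16P2 had 936, 895 and 883 reads in mod and 318, 306 and 258 in Nvs (log2 fold change -0.68 ± 0.12 SE, adjusted p = 0.000601, edgeR). All Nvs libraries had fewer of these reads than any mod library, while all had more KRT16 reads. KRT16P2 held 6.96% ± 0.589 of the reads of KRT16 and KRT16P2 in mod and 1.44% ± 0.248 in Nvs (SD, n = 3). With the reads of all KRT16 pseudogenes added to KRT16, its log2 fold change was 1.59 in place of 1.68. The other 6 copies, KRT16P3, KRT16P5, KRT17P1, KRT17P3, KRT17P6 and KRT42P, had at most 43 reads in a library. Of these KRT16P3 was tested and not called (adjusted p = 0.529, edgeR).

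In the type II cluster 8 of the 16 tested keratin genes were called higher and 0 lower with TMM scaling, and in the type I cluster 4 of 10 higher and 2 lower, beside 22.8% and 20.5% of all tested genes. These counts include the stress keratins themselves, KRT6A, KRT6B and KRT6C among the 8 and KRT16 and KRT17 among the 4. By library total the counts turned to 0 higher and 6 lower in the type II cluster and 3 higher and 5 lower in the type I cluster. On that scale 4.03% of all tested genes were called higher and 68% lower. KRT5, which directly follows KRT6A in the genome, was not called, at 7258 ± 361 CPM in mod and 6969 ± 240 CPM in Nvs (log2 fold change -0.06 ± 0.06 SE, adjusted p = 0.428, edgeR). KRT14, near KRT16, went from 8118 ± 456 to 12547 ± 711 CPM (0.63 ± 0.06 SE, adjusted p = 2.41e-06, edgeR), but was at -0.13 by library total. Of 16 tested keratins of other epidermal and simple epithelia, 7 rose and 2 fell, against the same 22.8% and 20.5% (median log2 fold change 0.36, and -0.40 by library total), while by library total 1 was called higher and 9 lower. Those with the smallest p besides KRT14 were KRT10 (1.17 ± 0.08), the type I keratin of suprabasal cells, KRT18 (0.88 ± 0.06), a keratin of simple epithelia, and KRT1 (0.61 ± 0.06), the partner of KRT10. By library total KRT10 alone of these was still called higher (0.41), while KRT18 (0.12, adjusted p = 0.0673, edgeR) and KRT1 (-0.14, adjusted p = 0.0518, edgeR) were not called. The falling members were KRT13 (-0.20 ± 0.05), a keratin of moist stratified epithelia, and KRT15 (-0.23 ± 0.06), a basal type I keratin. KRT16 and KRT17 had the largest log2 fold changes of the tested genes in their cluster.

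**Figure D5:**
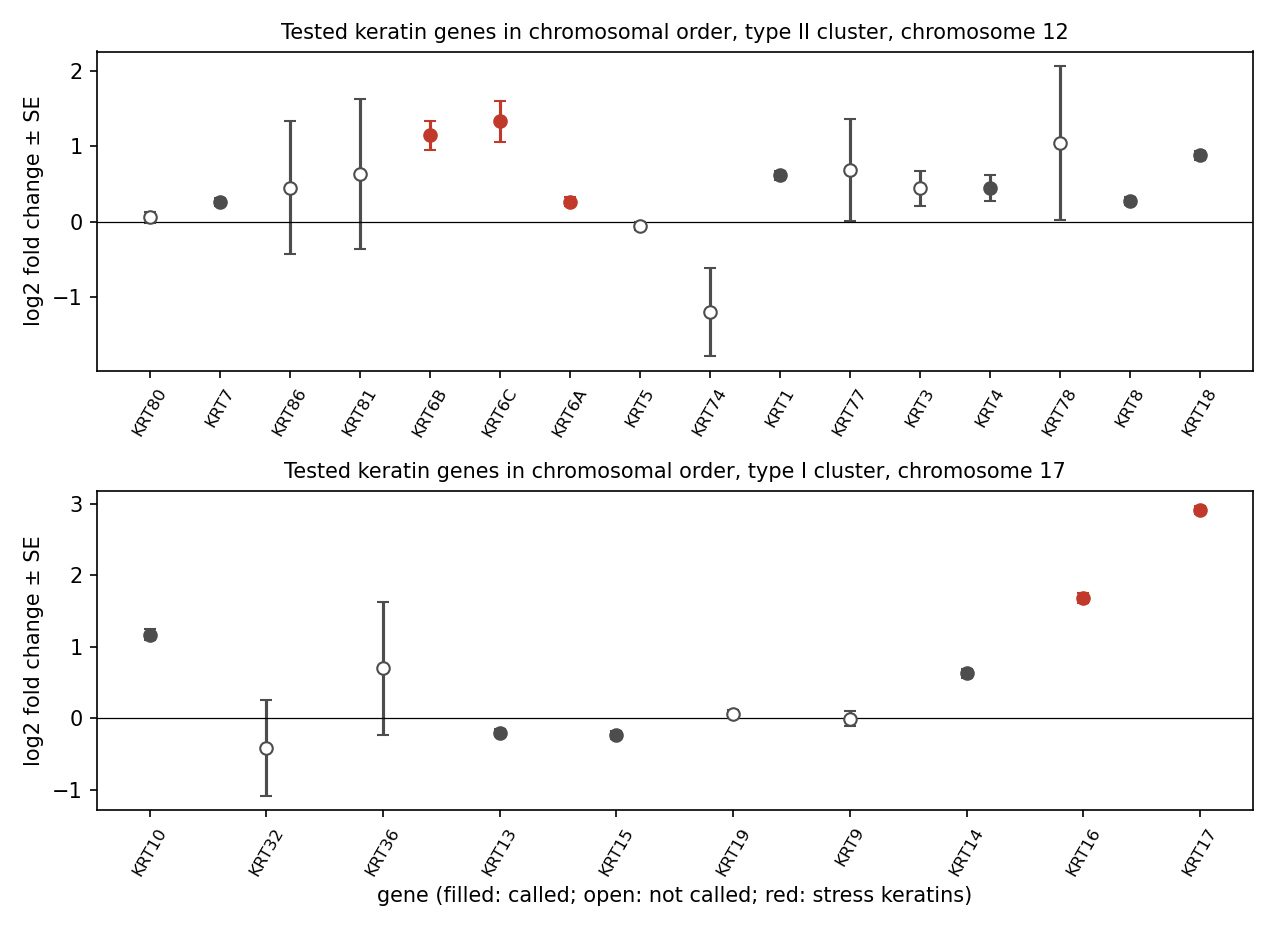
Log2 fold change ± SE (Nvs over mod, TMM scaling) of the tested keratin genes in chromosomal order in the type II cluster on chromosome 12 (top) and the type I cluster on chromosome 17 (bottom); filled points were called. KRT16 (1.68) and KRT17 (2.91) at the end of the type I cluster stand above KRT14 (0.63), and KRT6A (0.26) next to KRT5 (-0.06).

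Among 27 transcription factors reported to act on stress keratin genes, 13 rose and 5 fell (22.8% and 20.5% over all tested genes), with a median log2 fold change of 0.15 (-0.61 by library total). By library total 5 were called higher and 20 lower, beside 4.03% and 68% of all tested genes. Those with the smallest adjusted p in the edgeR test all rose on both scales. JUND, an AP-1 subunit, went from 88.8 ± 3.05 to 349.9 ± 15.3 CPM (1.98 ± 0.06). FOSL1, the AP-1 subunit FRA1, went from 47.6 ± 3.62 to 209.6 ± 11.2 CPM (2.14 ± 0.07). JUN rose by 1.68 ± 0.06 and CEBPD, a C/EBP factor, by 1.72 ± 0.06. Those that fell included SP1 (-0.33 ± 0.08), NR3C1 (-0.27 ± 0.08), the glucocorticoid receptor, THRA (-0.25 ± 0.09), a thyroid hormone receptor, and GLI2 (-2.60 ± 0.92), a hedgehog effector with a mean level under 0.4 CPM.

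Ligands and receptors that induce these keratins split by role, a division made after their values were seen. Of 10 tested ligands 9 rose and 0 fell, with a median log2 fold change of 1.07. Of 12 receptors 0 rose and 6 fell, with a median of -0.28. Over all tested genes 22.8% rose and 20.5% fell. By library total the counts were 5 higher and 2 lower for ligands and 0 and 11 for receptors. On that scale 4.03% of all tested genes were called higher and 68% lower. Receptor transcripts were longer (median 6950 against 3012 bases), and the length trend had a median of -0.12 for receptors and 0.14 for ligands. Among the ligands HBEGF, which activates the EGF receptor, rose by 1.14 ± 0.09, IL1B by 1.00 ± 0.11 and IL6 by 2.76 ± 0.27. By library total HBEGF and IL6 were still called higher, and IL1B was not (0.24, adjusted p = 0.0634, edgeR). Among the receptors EGFR itself went from 628 ± 25.5 to 408.4 ± 31.3 CPM (-0.62 ± 0.06, adjusted p = 2.79e-06, edgeR). TNFRSF1A, IFNGR1, IL6R, IL22RA1 and TGFBR1 fell by less, from -0.27 to -0.56.

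Of 20 tested genes whose proteins bind or organise keratin filaments, 8 fell and 3 rose, against 20.5% and 22.8% of all tested genes (median log2 fold change -0.08, and -0.84 by library total). By library total 17 were called lower and 1, SFN, higher, beside 68% and 4.03% of all tested genes. The trend of fold change on transcript length was not taken off the values of this list, and its part in them was not tested. EVPL and PPL, plakins of the cornified envelope, fell by 0.60 ± 0.07 and 0.40 ± 0.06, and DSP, the plakin that ties keratins to desmosomes, by 0.39 ± 0.06. Those that rose were SFN (1.14 ± 0.06), STUB1 (0.62 ± 0.10) and PKP3 (0.28 ± 0.07), of which STUB1 and PKP3 were at -0.14 and -0.48 by library total. SFN encodes 14-3-3 sigma, which binds keratin 17 in mouse keratinocytes, and went from 2028 ± 118.7 to 4484 ± 320.1 CPM (adjusted p = 1.32e-08, edgeR).

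Other genes of activated keratinocytes, as at wound edges or in psoriasis, rose in 13 of 21 tested cases and fell in 3. Over all tested genes 22.8% rose and 20.5% fell. The median log2 fold change of the 21 was 1.11, and 0.36 by library total. On the latter scale 10 were called higher and 4 lower, beside 4.03% and 68% of all tested genes. The length trend, which was 0.40 at the 1429 bases of KRT16P2, was not taken off the values of this list. Its part in them was not tested. SPRR1B, a cornified envelope precursor, rose by 2.09 ± 0.05 and PLAUR, the urokinase receptor, by 1.16 ± 0.07. S100A9, a calprotectin subunit, rose from 13.1 ± 0.407 to 37.1 ± 0.857 CPM. Those that fell were TNC, the matrix protein tenascin C (-1.17 ± 0.08), and the integrin chains ITGAV (-0.79 ± 0.06) and ITGA5 (-0.40 ± 0.06).

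The genes most like each abundant stress keratin were found among 9055 protein-coding genes by the distance between log2 CPM profiles over the 6 libraries, each centred on its own mean. With 2 groups this measure mostly reads the size of the group difference. For KRT17 they were TRAF1, an adaptor of TNF receptor signalling (distance 0.114 log2 units), BBC3, a pro-apoptotic gene (0.234), and INHBA, an activin subunit (0.241). For KRT16 they were SCAND1 (0.0266), STOM (0.0389) and CEBPD (0.0519). For KRT6A they were TMEM184A (0.0250), ZWINT (0.0257) and EHD4 (0.0277). The median distance over all candidates was 1.46 for KRT17, 0.853 for KRT16 and 0.233 for KRT6A, in the order of the fold changes of these 3 genes.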

How the data were processed

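RNA of HaCaT cells was sequenced after poly(A) selection as strand-specific paired reads of 150 bases, per the labels' protocols. The authors deposited raw counts per gene symbol and FPKM for 6 libraries, 3 per group, with hg38 named in the submitters' processing notes. Aligner, counter, annotation and strand setting were not given in the sources used here. Groups were taken from the library titles.

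The deposited counts were filtered (edgeR filterByExpr, minimum count 10), scaled by TMM and compared, Nvs against mod, with edgeR's quasi-likelihood test (edgeR 4.0.16, R 4.3.3). P-values were adjusted by Benjamini-Hochberg over all 14617 genes, and calls used an adjusted p under 0.05. CPM are TMM-scaled, ± is the SD over 3 libraries for levels and the SE for log2 fold changes. Ratios and make-up used the deposited FPKM, with exact permutation tests (two-sided). A lowess trend of fold change on transcript length gave the length trend, a description with no test. Fold changes are given with that trend still in them, save where it is said to be taken off. Transcript lengths are those implied by the deposited counts and FPKM. They can differ from those of the GENCODE transcripts used for the sequences, as for KRT17 with 3008 against 1651 bases. Replicates differed beyond sampling noise (chi-square per gene 12.0 to 15.9), so none was merged.

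In a test on simulated data with known fold changes the median estimates of the edgeR step followed the simulated sizes, and larger changes were called more often. That simulation changed 200 genes and gave all libraries otherwise equal gene proportions. It therefore does not bear on the choice between TMM scaling and library totals. The members and gene lists were chosen with earlier results of these data known. From each list the text names up to 4 genes with the smallest adjusted p and those called against the majority, from the copies those with a read, and for each of 3 stress keratins the 3 genes most alike with a mean of at least 5 CPM. A gene that this rule would name is not reported here. Sequences, coordinates and identities come from GENCODE release 29 transcripts on GRCh38. The windows shown are the 90-base stretches of a single exon with the most differing bases. No label states a pairing, so the main test used none. Same-numbered replicates did not deviate together, which cannot settle whether the libraries were paired. Alternatives were DESeq2 1.42.0, scaling by library total or without mitochondrial genes, other filters, limma 3.58.1 on log2 of FPKM plus 1 or 0.1, a replicate block, pooled copies and leaving out each library.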

Additional observations from a re-analysis of the deposited data

How the results depend on the processing

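KRT16 and KRT17 stayed called higher under each alternative that gave a test. Scaling by library total, which the FPKM share, turned 1 direction among the 5 genes. KRT6A was at -0.50 by library total and at -0.49 with limma on log2 FPKM plus 1, plus 0.1, or plus 1 with no filter. On these scales KRT6B was at 0.39, 0.30, 0.40 and 0.30 and KRT6C at 0.57, 0.28, 0.48 and 0.28, none called. They called 10527, 9636, 9591 and 10450 genes, of which 589, 588, 582 and 556 were higher and 9938, 9048, 9009 and 9894 lower, and by library total the median gene stood at -0.77. Less the length trend, the log2 fold changes were 0.11 for KRT6A, 1.46 for KRT16 and 2.77 for KRT17. Leaving out each library in turn gave 5159 to 6392 called genes, 2745 to 3317 higher and 2414 to 3075 lower, and log2 fold changes of 0.21 to 0.31 for KRT6A, 0.97 to 1.34 for KRT6B, 1.04 to 1.54 for KRT6C, 1.62 to 1.73 for KRT16 and 2.85 to 2.94 for KRT17, all still called. The log2 ratio of KRT17 to KRT16 then differed by 1.20 to 1.25 between the groups.

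The deviations of same-numbered libraries had correlations of -0.02, -0.01 and -0.02, so no shared deviation by number was seen. No label states whether the libraries were paired, and these values cannot settle it. With a replicate block 5949 genes were called, 3114 higher and 2835 lower, and the log2 fold changes were 0.27 for KRT6A, 1.17 for KRT6B, 1.28 for KRT6C, 1.68 for KRT16 and 2.91 for KRT17, with no call changed among these 5. With 3 libraries a group the ratio tests could not go below an exact permutation p of 0.1. The few reads of KRT6B and KRT6C, shared sequence among keratin 6 genes and the difference in mitochondrial reads limit what can be said of these 3 genes.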
